A study of Mus musculus with 12 samples.

Results

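The transcripts of 9 mouse genes that write, copy, guard or remove DNA methylation were followed in testis: Dnmt1, Uhrf1 and Trim28, Dnmt3a, Dnmt3b and Dnmt3l, and Tet1, Tet2 and Tet3. They were taken by gene symbol, as a set put together with earlier results of these data known, and each has 1 row among the 20788 genes of the deposited table. The study addressed what lncRNA5251, a long non-coding RNA, does in spermatogenesis, by lowering or raising its level in the testis of males and following them and their offspring. RNA-seq was made from testes of F1 males of a strain that the labels write "IRC mouse" and the study ICR, collected at 8 weeks of age per the study's methods, in 4 groups of 3 libraries. Fathers of the lncRNA5251 knockdown group received a lentivirus with a mix of 3 hairpins against that RNA, and those of 3NC the knockdown vector's negative control. Fathers of the lncRNA5251 overexpression group received a lentivirus that carries lncRNA5251, and those of 5NC the same vector when empty. All 4 groups thus share a viral injection in the line of descent, no group without virus was analysed here, and the labels name no further allele or agent.

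In the study's methods the virus went into the testes of the F0 males at 4 weeks of age, whereas the series text says that the F1 testes were transfected. The labels do not say whether the 3 libraries of a group are separate animals, so p-values rest on a spread that may be technical in part. No row of the table carries the name lncRNA5251, a row of its locus under another symbol was not looked for, and its level is not given here. Depth was 12719699 to 15771655 estimated reads per library, with a median of 15273158. The tissue label was checked with listed cell markers, and the 10 markers of elongating spermatids (protamines, transition proteins and tail proteins) summed to 20321 to 27835 CPM (counts of a gene scaled to a fixed library size) in each library. Of the 10 epididymis markers, the 5 that passed the filter on low counts summed to 7.85 to 331 CPM.

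DNA methylation is the addition of a methyl group to cytosine, mostly where a C is followed by a G. New marks are set by DNMT3A and DNMT3B, which work together with DNMT3L, a relative without catalytic activity that is needed for methylation in the male germ line before birth. After replication UHRF1 binds the half-methylated DNA and brings DNMT1, which copies the mark to the new strand, and TRIM28 is a corepressor that zinc finger proteins bring to imprinted regions and transposons. TET1, TET2 and TET3 oxidise methylcytosine, which starts its removal. In the testis these steps are best known from germ cells before and after birth and from spermatogonia, whereas most RNA of an adult testis comes from spermatocytes and spermatids. A whole testis was measured, so fewer cells of a type and less RNA per cell cannot be told apart.

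The RefSeq table of promoter windows (build GRCm38.p6, 250 bases before to 50 bases after a transcription start, 300 bases in all) held 16 windows for all 9 genes. Of these, 6 are printed. They are the starts of Dnmt3b, Dnmt3l and Tet3, whose libraries did not overlap between the overexpression group and 5NC, as for 21.3% of all genes, and of Tet2, which was highest in the same libraries as Tet3. CG, the letters that DNA methyltransferases act on, is in capitals, and it reads the same on both strands and cannot overlap itself. Dnmt3l has 3 listed starts on the plus strand, at chr10:78042037-78042336, chr10:78049592-78049891 and chr10:78055085-78055384. The Dnmt3b window is chr2:153649199-153649498 on the plus strand, that of Tet2 is chr3:133544341-133544640 and that of Tet3 is chr6:83441629-83441928, both on the minus strand. All are written 5′ to 3′ along the gene.
Dnmt3l start 1: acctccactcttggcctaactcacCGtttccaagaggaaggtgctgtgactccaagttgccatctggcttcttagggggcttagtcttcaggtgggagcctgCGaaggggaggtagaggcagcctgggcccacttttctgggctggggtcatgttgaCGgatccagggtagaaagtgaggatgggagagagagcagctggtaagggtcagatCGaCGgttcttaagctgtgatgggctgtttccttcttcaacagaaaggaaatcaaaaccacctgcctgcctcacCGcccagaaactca
Dnmt3l start 2: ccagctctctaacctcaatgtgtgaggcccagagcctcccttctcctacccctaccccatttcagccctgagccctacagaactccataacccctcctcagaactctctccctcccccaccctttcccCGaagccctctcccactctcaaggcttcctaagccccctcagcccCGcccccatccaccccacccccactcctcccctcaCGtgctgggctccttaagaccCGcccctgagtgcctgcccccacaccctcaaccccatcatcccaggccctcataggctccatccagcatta
Dnmt3l start 3: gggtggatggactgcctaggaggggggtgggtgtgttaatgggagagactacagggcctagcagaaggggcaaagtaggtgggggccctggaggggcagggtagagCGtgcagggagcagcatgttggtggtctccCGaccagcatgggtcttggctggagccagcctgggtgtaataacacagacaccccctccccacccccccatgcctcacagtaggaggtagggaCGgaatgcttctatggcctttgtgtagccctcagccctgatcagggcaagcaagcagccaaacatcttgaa
Dnmt3b: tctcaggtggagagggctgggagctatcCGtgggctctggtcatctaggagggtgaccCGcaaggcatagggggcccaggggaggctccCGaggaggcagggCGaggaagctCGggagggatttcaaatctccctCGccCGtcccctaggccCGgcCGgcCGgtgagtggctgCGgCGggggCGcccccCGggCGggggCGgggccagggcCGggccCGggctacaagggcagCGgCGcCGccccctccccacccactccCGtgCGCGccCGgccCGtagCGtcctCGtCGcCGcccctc
Tet2: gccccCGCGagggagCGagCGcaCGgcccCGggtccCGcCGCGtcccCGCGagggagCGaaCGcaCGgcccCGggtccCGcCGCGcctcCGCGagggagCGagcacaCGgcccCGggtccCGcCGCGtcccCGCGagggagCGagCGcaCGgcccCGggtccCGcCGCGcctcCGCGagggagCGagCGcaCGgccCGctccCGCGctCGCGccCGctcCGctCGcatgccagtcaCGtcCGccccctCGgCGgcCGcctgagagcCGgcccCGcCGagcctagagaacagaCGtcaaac
Tet3: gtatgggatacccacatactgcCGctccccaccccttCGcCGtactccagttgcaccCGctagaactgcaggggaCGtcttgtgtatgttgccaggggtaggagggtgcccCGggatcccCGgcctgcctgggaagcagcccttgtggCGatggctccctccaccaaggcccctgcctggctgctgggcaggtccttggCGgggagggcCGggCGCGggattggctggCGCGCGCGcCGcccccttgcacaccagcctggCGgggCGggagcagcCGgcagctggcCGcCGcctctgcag

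Of all 32851 windows in the table, 94.6% held a CG, with a median of 7 per window. The windows of Dnmt3l held 6, 4 and 3, fewer than the median, which means that 43.6%, 31.4% and 23.3% of all windows held fewer. Dnmt3b had 30 CG, Tet3 22 and Tet2 57, and 99.8% of windows held fewer than that of Tet2. Of the 16 windows of the 9 genes, 12 held more than the median, and the exceptions were the 3 of Dnmt3l and the most upstream window of Dnmt1, with 2. Estimated counts are given per gene, so they do not say which of the starts of Dnmt1, Dnmt3a, Dnmt3l or Uhrf1 was used, and methylation itself was not measured. The windows of Tet2 and Tet3 lie inside the genes, whose upstream ends are at 133545136 and 83457208, so these need not be their only starts.

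Levels between genes were compared per length, as the authors' FPKM (fragments scaled to gene length and library size). Trim28 was the highest at 124 FPKM on average, with 110 to 144 over the 12 libraries, and 94.3% of the 16388 tested genes had a lower mean. Uhrf1 followed at 25.8 FPKM (23.1 to 28.4), then Dnmt1 at 9.71 (7.86 to 11.2) and Dnmt3l at 7.11 (4.51 to 9.92), where the tested genes had a median of 6.44. The lowest were Dnmt3a at 2.05 FPKM (1.75 to 2.5), Dnmt3b at 1.93 (1.61 to 2.74), Tet3 at 0.797 (0.57 to 1.41), Tet2 at 0.51 (0.33 to 1.0) and Tet1 at 0.10 (0.05 to 0.23), with 0.22% of tested genes below Tet1.

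The adult testis thus held more transcript per length of the maintenance partners Uhrf1 and Dnmt1 than of the de novo enzymes or any Tet gene. The ranges of 3 pairs of neighbours in this order overlapped over the libraries. Dnmt1 was above Dnmt3l in 11 of 12 libraries, Dnmt3a above Dnmt3b in 8 of 12 and Tet3 above Tet2 in 12 of 12. The order was the same when TMM-scaled CPM were divided by the gene length implied by the table. Trim28 has a fractional count in all 12 libraries, so its reads are shared with another gene to an extent that is not known and its level is uncertain, while the counts of the other 8 genes are whole.

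**Figure D1:**
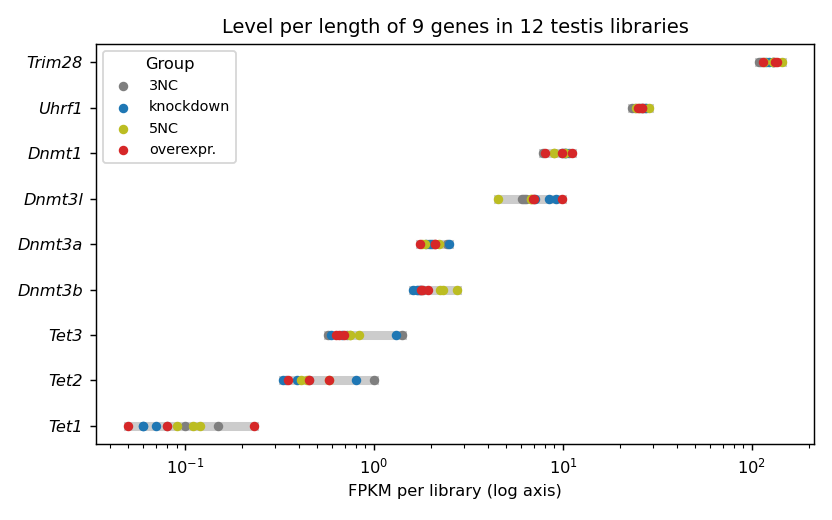
FPKM of each gene (log axis) in each of the 12 libraries, with 1 point per library coloured by group and a grey bar from the lowest to the highest. Trim28 lies at 110 to 144 and Tet1 at 0.05 to 0.23, and the bars of Dnmt1 and Dnmt3l, of Dnmt3a and Dnmt3b and of Tet3 and Tet2 overlap.

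None of the 9 genes passed the test in any comparison, which used edgeR's quasi-likelihood test with Benjamini-Hochberg adjustment over 16388 genes and an adjusted p threshold of 0.05. For the knockdown against 3NC 0 of 9 passed and 0 had an unadjusted p under 0.05, where 0.0% of all tested genes passed and 5.64% had such a p. For the overexpression against 5NC 0 of 9 passed and 2 had an unadjusted p under 0.05 (Dnmt3b and Dnmt3l), where 0.311% of all genes passed and 11.9% had such a p. For the vector controls, 5NC against 3NC, 0 of 9 passed and 1 had such a p (Dnmt3b), beside 0.128% and 10.8% of all genes. The test of any difference among the 4 groups gave 0 of 9 with 1 unadjusted (Dnmt3b) beside 0.238% and 11.4% of all genes, and that of the knockdown effect minus the overexpression effect gave 0 of 9 with 0 unadjusted beside 0.0244% and 4.63%. DESeq2 and limma-trend also called 0 of 9 in each of the 5 comparisons.

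The median log2 fold change of the 9 genes was 0.01 in the knockdown against 3NC, where that of all tested genes was -0.02. It was 0.04 in the overexpression against 5NC beside -0.01 for all genes, and -0.08 in 5NC against 3NC beside -0.02.

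Uhrf1, which recognises half-methylated DNA (gene ID 18140, chr17:56303337-56323486), varied least of the 9 genes. Its 3NC libraries held 90.8, 75.0 and 79.7 CPM in replicates 1 to 3 and its knockdown libraries 85.6, 92.4 and 86.8. Its 5NC libraries held 92.2, 81.5 and 78.9 CPM and its overexpression libraries 87.8, 87.8 and 83.3. All 4 groups overlapped, and the within-group coefficient of variation was 6.84%, where the median of all tested genes was 15.1%. The log2 fold change was 0.11 (SE 0.09, 95% interval -0.09 to 0.31, adjusted p = 0.772 by edgeR) in the knockdown against 3NC and 0.04 (SE 0.09, -0.16 to 0.23, adjusted p = 0.93) in the overexpression against 5NC, so both intervals lie within a change of 0.31, and the second value turned to -0.014 when libraries were not scaled.

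Dnmt1, the maintenance methyltransferase (gene ID 13433, chr9:20907206-20959888, minus strand), overlapped between each lncRNA5251 group and its control. It stood at 60, 51.6 and 45.5 CPM in 3NC and at 55.3, 59.0 and 56.0 in the knockdown group. It stood at 54.4, 48.1 and 47.9 CPM in 5NC and at 62.7, 54.5 and 44.0 in the overexpression group. The overexpression libraries spanned the whole range, from the highest to the lowest value of all 12. The log2 fold changes were 0.12 (SE 0.13, -0.18 to 0.41, adjusted p = 0.82 by edgeR) in the knockdown and 0.10 (SE 0.13, -0.19 to 0.39, adjusted p = 0.843) in the overexpression comparison.

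Trim28, the corepressor (gene ID 21849, chr7:13024152-13031032), had the most reads of the set and an uncertain level, for the reason given with the FPKM values. It held 407, 322 and 364 CPM in 3NC and 362, 412 and 392 in the knockdown group. It held 440, 350 and 391 CPM in 5NC and 431, 415 and 355 in the overexpression group, and all groups overlapped. The log2 fold changes were 0.09 (SE 0.12, -0.16 to 0.35, adjusted p = 0.834 by edgeR) and 0.02 (SE 0.12, -0.23 to 0.28, adjusted p = 0.966). The second of these changed sign, to -0.025, when libraries were not scaled.

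**Figure D2:**
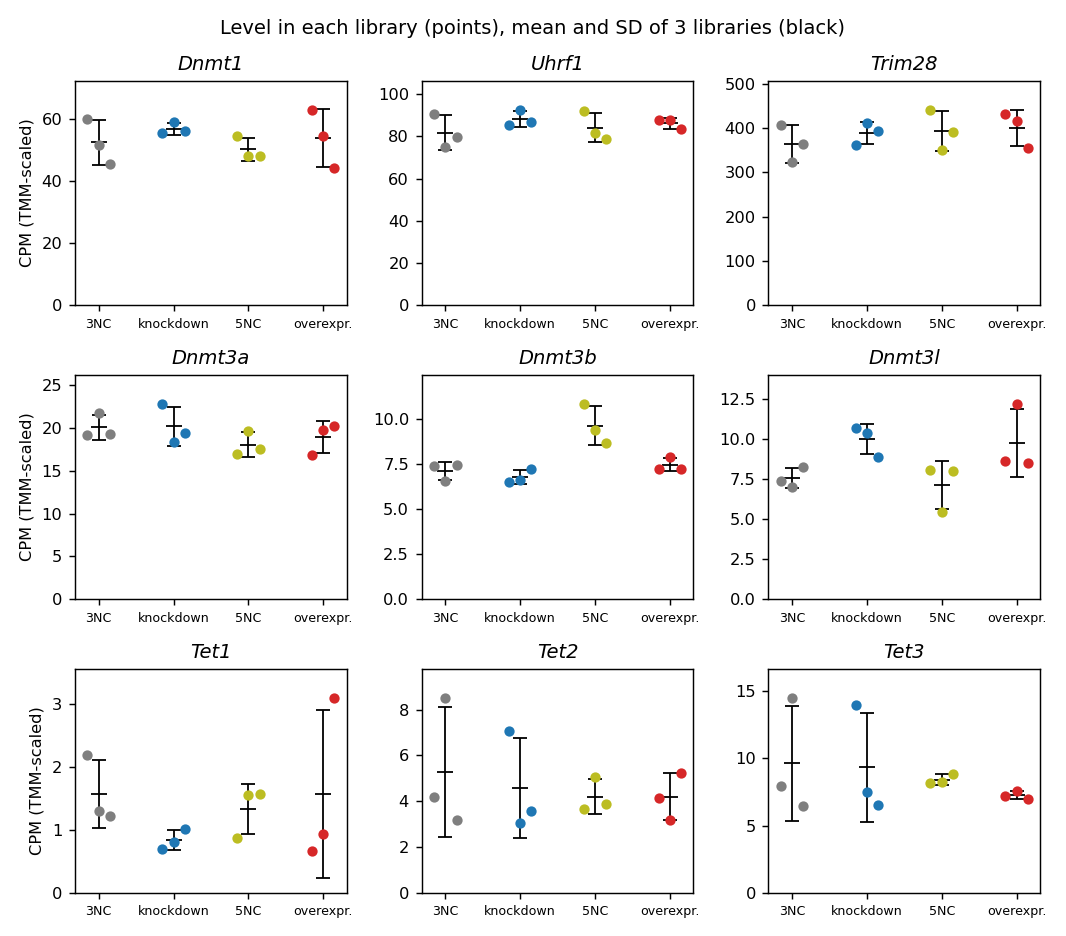
CPM scaled by TMM, from 0, of each gene in each library (coloured points, replicates 1 to 3 from left to right), with the mean and SD of the 3 libraries of a group in black. Dnmt3b is higher in the 5NC libraries than in all others, the knockdown and overexpression points of Dnmt3l lie above those of the control of each, and 1 library each of 3NC and the knockdown group is high for Tet2 and Tet3.

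Dnmt3a, a de novo methyltransferase (gene ID 13435, chr12:3801559-3914443), held 19.2, 21.7 and 19.3 CPM in 3NC and 22.8, 18.4 and 19.4 in the knockdown group. It held 17.0, 19.7 and 17.5 CPM in 5NC and 16.8, 19.8 and 20.2 in the overexpression group. The groups overlapped in both comparisons. The log2 fold changes were 0.01 (SE 0.12, -0.25 to 0.27, adjusted p = 0.988 by edgeR) and 0.07 (SE 0.12, -0.20 to 0.33, adjusted p = 0.889), and the first turned to -0.002 without scaling. Its highest libraries were knockdown replicate 1 and 3NC replicate 2, as for Tet2 and Tet3.

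Dnmt3b, the other de novo enzyme (gene ID 13436, chr2:153649411-153687730), was set apart by the 5NC libraries. It held 10.8, 9.36 and 8.66 CPM in 5NC and 7.23, 7.86 and 7.22 in the overexpression group. It held 7.35, 6.52 and 7.43 CPM in 3NC and 6.51, 6.58 and 7.23 in the knockdown group. Each 5NC library lay above each of the other 9 libraries, which 2.84% of all tested genes showed for 5NC. The mean of 5NC was 9.6 ± 1.09 CPM (SD, n = 3), and the means of the other groups were 7.1 ± 0.5 in 3NC, 6.77 ± 0.394 in the knockdown group and 7.44 ± 0.365 in the overexpression group.

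The log2 fold change of Dnmt3b was 0.44 in 5NC against 3NC (SE 0.13, 0.14 to 0.73, unadjusted p = 0.00757, adjusted p = 0.3 by edgeR). It was -0.37 in the overexpression against 5NC (SE 0.13, -0.66 to -0.07, unadjusted p = 0.0188, adjusted p = 0.311). These comparisons share the 5NC libraries and are not separate measurements of the difference. In the knockdown against 3NC, whose groups do not include 5NC, it was -0.07 (SE 0.14, -0.37 to 0.23, adjusted p = 0.902). The SE and p of each comparison rest on the spread of all 12 libraries. Non-overlap of 5NC above 3NC was seen for 6.8% of all genes (below, 6.18% of all and none of the 9), and of the overexpression below 5NC for 10%. The test among the 4 groups gave an unadjusted p of 0.0118 and an adjusted p of 0.281 by edgeR. Over the 22 alternative settings the adjusted p was 0.186 to 0.777 in the overexpression against 5NC and 0.201 to 0.752 in 5NC against 3NC.

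Of 11 marker lists of testis and other cells, 4 did not overlap in summed CPM between the overexpression group and 5NC, where Dnmt3b, Dnmt3l and Tet3 lay apart. Each sum holds only the tested markers of a list. The 12 spermatogonial markers, 10 of them tested and Nanos2 at 0 in at least 1 library, summed to 768 to 858 CPM in 5NC and to 692 to 723 in the overexpression group. The 10 round spermatid markers, all tested and none at 0, summed to 1539 to 1647 CPM in 5NC and 1736 to 2008 in the overexpression group. The 12 white blood cell markers, 11 tested and Cd3e at 0 in at least 1 library, summed to 416 to 429.9 CPM and 441 to 443. The 10 epididymis markers, 5 of them tested and Lcn5, Lcn8, Lcn9, Defb20, Gpx5, Rnase9 and Adam7 at 0 in at least 1 library, summed to 32.0 to 331 CPM and 7.85 to 16.8. Between 5NC and 3NC 1 list lay apart, that of white blood cells (433 to 1047 CPM in 3NC), and between the knockdown group and 3NC 1 did, that of the epididymis (16.4 to 31.0 CPM in the knockdown group and 46.5 to 90.6 in 3NC). The part of these lists in the values of the genes was not tested.

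Dnmt3l, the cofactor without catalytic activity (gene ID 54427, chr10:78042287-78063622), lay above the control in every library of both lncRNA5251 groups, but did not pass the test in either. It held 7.41, 7.02 and 8.24 CPM in 3NC and 10.7, 10.4 and 8.91 in the knockdown group. It held 8.05, 5.42 and 8.01 CPM in 5NC and 8.61, 12.2 and 8.49 in the overexpression group. The lowest knockdown library was above the highest 3NC library, and the lowest overexpression library above the highest 5NC library.

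In the knockdown against 3NC the log2 fold change of Dnmt3l was 0.40 (SE 0.19, -0.02 to 0.83, unadjusted p = 0.0618, adjusted p = 0.764 by edgeR), a fold of 1.32. In the overexpression against 5NC it was 0.45 (SE 0.20, 0.02 to 0.88, unadjusted p = 0.0418, adjusted p = 0.395), a fold of 1.36. Non-overlap on the higher side was seen for 4.95% of all genes in the knockdown and 11.3% in the overexpression comparison, and for 1.01% in both, which no other of the 9 genes showed. The effects differed by -0.04 (SE 0.28, -0.65 to 0.56), an interval that holds differences of either sign between knockdown and overexpression.

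Single libraries carried part of the overexpression value of Dnmt3l: it was 0.26 without overexpression replicate 2 and 0.28 without 5NC replicate 2. Of the 4 lists that lay apart in the overexpression comparison, that of the epididymis also lay apart, on the lower side, in the knockdown comparison, as Dnmt3l did on the higher side. The other 3 overlapped between the knockdown group and 3NC, with 1784 to 2030 and 1515 to 2058 CPM for round spermatids. The 10 spermatocyte markers, none at 0, overlapped in both comparisons, with 1286 to 1589 CPM in 3NC, 1334 to 1387 in the knockdown group, 1328 to 1692 in 5NC and 1379 to 1595 in the overexpression group. Their part in the Dnmt3l values was not tested.

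**Figure D3:**
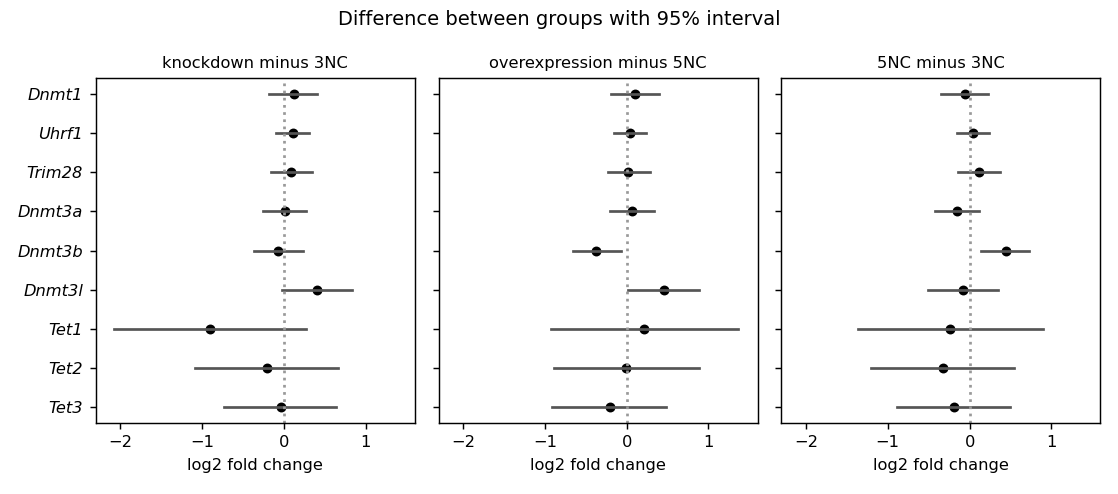
Log2 fold change (points) with its 95% interval (lines) of each gene in the knockdown, overexpression and control comparisons, from the edgeR fit of all 12 libraries. The intervals of Dnmt3b exclude 0 in both comparisons that hold 5NC and that of Dnmt3l in the overexpression comparison, and no gene passed after adjustment.

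Tet1, an oxidase of methylcytosine (gene ID 52463, chr10:62804570-62887469, minus strand), had the fewest reads of the set. It had 33, 21 and 18 reads in 3NC and 11, 12 and 15 in the knockdown group, which are 2.18, 1.30 and 1.22 CPM and 0.695, 0.798 and 1.01 CPM. It had 14, 22 and 22 reads in 5NC and 10, 14 and 39 in the overexpression group, which are 0.873, 1.55 and 1.57 CPM and 0.658, 0.932 and 3.09 CPM. Each knockdown library was below each 3NC library in CPM, as for 6.36% of all genes. Their counting intervals overlapped, since 15 reads have an exact 95% Poisson interval of 8.4 to 24.7 and 18 reads one of 10.7 to 28.4, which cover counting error only.

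The knockdown log2 fold change of Tet1 was -0.90 (SE 0.54, -2.08 to 0.27, adjusted p = 0.764 by edgeR), a fold of 0.535 with an interval of 0.237 to 1.21. It was -0.58 without 3NC replicate 1, the 3NC library with the most reads. The overexpression value was 0.21 (SE 0.52, -0.93 to 1.36, adjusted p = 0.927) and turned to -0.72 without overexpression replicate 3. Neither comparison passed the test. The CV of Tet1 within groups was 56.7%, and 93.2% of tested genes had a lower one.

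Tet2 and Tet3 were high in the same pair of libraries, 3NC replicate 2 and knockdown replicate 1. Tet2 (gene ID 214133, chr3:133463677-133545136, minus strand) held 4.17, 8.51 and 3.17 CPM in 3NC and 7.08, 3.06 and 3.58 in the knockdown group. It held 3.68, 5.07 and 3.86 CPM in 5NC and 4.14, 3.20 and 5.24 in the overexpression group. Apart from those 2 libraries its values were 3.06 to 5.24 CPM.

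Tet3 (gene ID 194388, chr6:83362373-83457208, minus strand) held 7.94, 14.5 and 6.48 CPM in 3NC and 14.0, 7.51 and 6.55 in the knockdown group. It held 8.17, 8.23 and 8.87 CPM in 5NC and 7.23, 7.59 and 6.98 in the overexpression group, where every overexpression library was below every 5NC library, as for 10% of all genes. Beside the 2 high libraries its values were 6.48 to 8.87 CPM. The within-group coefficient of variation was 34.0% for Tet3 and 41.7% for Tet2, where the median of all tested genes was 15.1%.

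The high libraries lie in a control and a treated group, and the knockdown comparison of both genes depended on which was kept. The log2 fold change of Tet2 in the knockdown against 3NC was -0.21 (SE 0.40, -1.08 to 0.66, adjusted p = 0.9 by edgeR), and 0.31 without 3NC replicate 2, -0.67 without knockdown replicate 1 and -0.15 without both. That of Tet3 was -0.04 (SE 0.31, -0.73 to 0.64, adjusted p = 0.976), and 0.37, -0.46 and -0.04 in the same order. In the overexpression against 5NC, whose groups hold neither library, Tet2 had -0.01 (SE 0.40, -0.89 to 0.88, adjusted p = 0.998) and Tet3 -0.21 (SE 0.32, -0.91 to 0.48, adjusted p = 0.865). The SE and p of that comparison still rest on the spread of all 12 libraries, the 2 high ones among them. With both left out, Tet2 had -0.01 (adjusted p = 0.99 by edgeR) and Tet3 -0.21 (adjusted p = 0.454).

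White blood cell markers were high in the same 2 libraries. Of the 12 listed genes 11 were tested, and Cd3e was at 0 in at least 1 library. The tested ones summed to 1047 CPM in 3NC replicate 2 and 1157 in knockdown replicate 1, with 416 to 492 in the other 10 libraries. Of the 11 tested markers 9 had these as their 2 highest libraries, as did Tet2, Tet3 and Dnmt3a and 13.9% of all tested genes (2273). The spermatogonial list was at 604 CPM in 3NC replicate 2 and 721 in knockdown replicate 1, with 692 to 858 in the other 10. 3NC replicate 2 was also above the other 10 for Sertoli (1022 beside 791 to 993 CPM) and endothelium markers (61.8 beside 33.8 to 52.6). It was below them for spermatocytes (1286 beside 1307 to 1692), round spermatids (1515 beside 1539 to 2058) and elongating spermatids (20321 beside 20980 to 27835). Knockdown replicate 1 was within the range of the other 10 for each of these. The part of white blood cells or of the other lists in the Tet2 and Tet3 values was not tested.

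**Figure D4:**
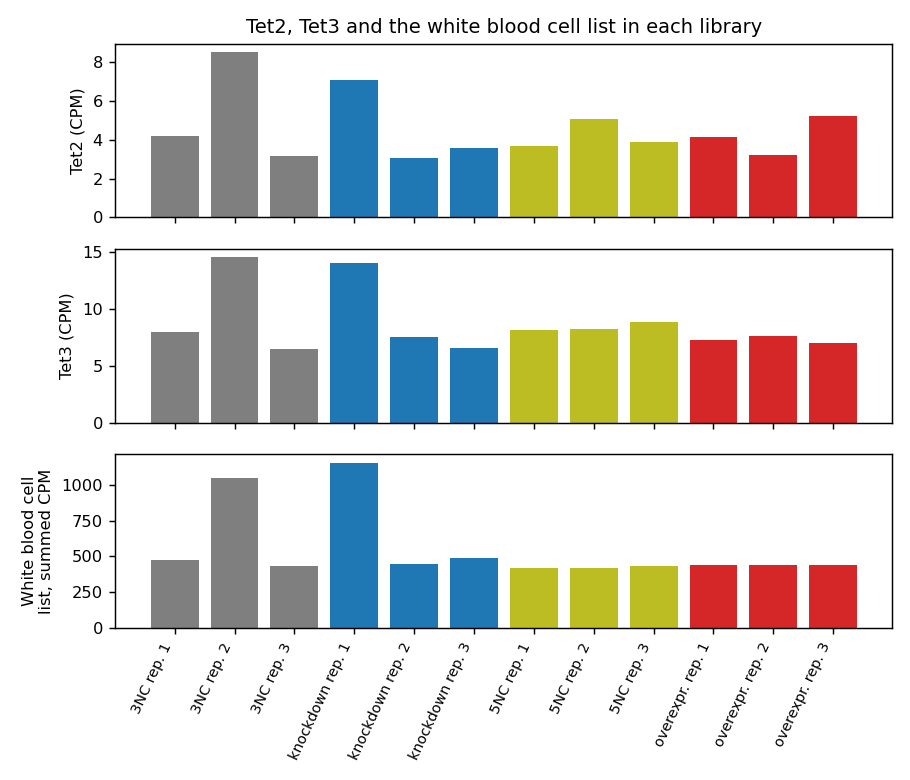
Bars from 0 give the CPM of Tet2 and of Tet3 and the summed CPM of the 11 tested white blood cell markers in each library, coloured by group. 3NC replicate 2 and knockdown replicate 1 are the highest in all 3 panels, at 8.51 and 7.08 CPM for Tet2, 14.5 and 14.0 CPM for Tet3 and 1047 and 1157 CPM for the list.

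Likeness between genes was described by Pearson's r of log2 CPM over the 12 libraries, which differ in depth and in the marker lists, and again over 10 libraries without 3NC replicate 2 and knockdown replicate 1. Tet2 and Tet3 had an r of 0.84 over 12 libraries and of 0.22 over 10. Uhrf1 and Trim28 had 0.82 and 0.76, Dnmt1 and Uhrf1 0.68 and 0.80, and Dnmt1 and Trim28 0.62 and 0.81. Dnmt3a had 0.67 and 0.17 with Tet2, and 0.60 and -0.39 with Tet3. Higher over 10 libraries were Tet1 with Tet2, at 0.17 and 0.66, and Dnmt3b with Tet3, at -0.26 and 0.61. Several other pairs had negative values, and those at -0.60 or lower over 12 or over 10 libraries are given. They were Dnmt3a with Trim28 at -0.76 and -0.68, Tet2 with Trim28 at -0.73 and -0.48, and Dnmt1 with Tet1 at -0.60 and -0.60. The others were Dnmt3l with Tet2 at -0.33 and -0.68 and Tet1 with Trim28 at -0.41 and -0.66. Of the 36 pairs, 6 (16.7%) had an r over 0.6 and 2 (5.56%) one under -0.6 over 12 libraries, beside 8.77% and 7.66% of all pairs of tested genes. Over 10 libraries these were 5 (13.9%) and 3 (8.33%) pairs beside 10.1% and 10%.

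Of all tested genes, those most like each of the 9 were picked by the highest r, up to 2 for each, which are high by choice among 16388. For Dnmt3b they were Pgap2 (0.94 over 12 libraries, 0.94 over 10) and Exoc3l2 (0.94 and 0.92), and for Dnmt3l Thra (0.89 and 0.89) and Ppara (0.88 and 0.88). For Tet2 they were Ddr2 (0.97 and 0.94) and Itgav (0.95 and 0.85), for Tet3 Tuba1b (0.98 and 0.93), and for Tet1 Smoc1 (0.90 and 0.92) and Arhgef4 (0.89 and 0.90). For Dnmt1 they were Ppp1r35 (0.95 and 0.96) and Atf6b (0.95 and 0.97), for Uhrf1 Sdk2 (0.95 and 0.93) and Tonsl (0.95 and 0.97), for Trim28 Ndufa4l2 (0.97 and 0.95) and Il4i1b (0.96 and 0.94), and for Dnmt3a Hs2st1 (0.93 and 0.89) and Pde7b (0.91 and 0.84).

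The wider pathway was described with 4 lists of 75 genes, of which 74 were in the table and 71 were tested, with Dppa3 and Mat1a among those too low, at 3 and 51 reads over all libraries. In the knockdown against 3NC 0 of 71 passed in edgeR, with 8 (11.3%) at an unadjusted p under 0.05 beside 5.64% of all genes. In the overexpression against 5NC 1 passed, as lower, beside 0.311% of all genes, with 5 (7.04%) unadjusted beside 11.9%, and in 5NC against 3NC 0 passed with 5 (7.04%) unadjusted beside 10.8%. For the difference between the knockdown and overexpression effects 0 of 71 passed in edgeR, with 2 (2.82%) unadjusted beside 4.63%, and Mtr passed in DESeq2 (adjusted p = 1.4e-05) and in edgeR without 3NC replicate 3 (0.0268).

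Among 23 tested partners of methylation, such as Zfp57, which guards imprints, and the histone methyltransferase Setdb1, 0 passed in any of these comparisons, and the median log2 fold change was -0.07 in the knockdown and -0.05 in the overexpression comparison. Among 14 readers of methylated DNA 0 passed, with medians of 0.08 and 0.09. Among 18 genes of the oxidation and repair steps 0 passed, with medians of -0.06 and -0.04. Among 16 genes of methyl donor supply 1 passed in the overexpression comparison, with medians of -0.01 and -0.02. The medians of all tested genes in these comparisons were -0.02 and -0.01.

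The gene that passed was Mtr, the methionine synthase (gene ID 238505, chr13:12181331-12258199), which remakes methionine for the methyl donor. It held 44.2, 50.9 and 47.2 CPM in 5NC and 28.5, 29.6 and 32.6 in the overexpression group, which was lower in every library. It held 34.5, 33.6 and 41.8 CPM in 3NC and 54.0, 48.0 and 43.1 in the knockdown group, which was higher in every library. Non-overlap on the higher side in the knockdown and the lower side in the overexpression was seen for 0.226% of all genes. The overexpression log2 fold change was -0.65 (SE 0.12, -0.90 to -0.39, adjusted p = 0.0485 by edgeR). The knockdown value was 0.40 (SE 0.12, 0.15 to 0.66, adjusted p = 0.764) and that of 5NC against 3NC, which shares the 5NC libraries with the overexpression comparison, was 0.37 (SE 0.12, 0.12 to 0.63, adjusted p = 0.301).

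The Mtr call was close to the threshold and passed in 10 of 22 alternative settings, with an adjusted p of 0.00011 in DESeq2 to 0.243 without overexpression replicate 2. It did not pass without 3NC replicate 1 (0.0776), any 5NC replicate (0.0517, 0.162 and 0.211), knockdown replicate 2 or 3 (0.102 and 0.0715), or any overexpression replicate (0.235, 0.243 and 0.0958). Nor did it pass without the filter on low counts (0.0565), on log2(FPKM + 1) (0.0514) or with a replicate block (0.102). Its log2 fold change was -0.70 to -0.54 in these 22 settings. For Mtr the test among the 4 groups had an adjusted p of 0.0724 by edgeR and did not pass. It passed without scaling (0.0495), in DESeq2 (8.07e-06) and without 3NC replicate 3 (0.0317), and in no other setting. The lists of spermatogonia, round spermatids, white blood cells and the epididymis also lay apart between the overexpression group and 5NC, and their part in the Mtr values was not tested.

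Ahcy, which breaks down the by-product of methylation, had the smallest p among the lower listed genes in the knockdown comparison. It held 25.2, 47.8 and 21.1 CPM in 3NC and 2.21, 2.92 and 14.8 in the knockdown group. It held 44.6, 44.7 and 40.9 CPM in 5NC and 8.42, 18.5 and 22.1 in the overexpression group. Each lncRNA5251 group lay below its control, with log2 fold changes of -2.24 (SE 0.62, -3.60 to -0.89, adjusted p = 0.764 by edgeR) and -1.41 (SE 0.59, -2.70 to -0.13, adjusted p = 0.376). Non-overlap on the lower side was seen for 6.36% of all genes in the knockdown, 10% in the overexpression and 0.842% in both. Its counts were fractional in 9 of 12 libraries, so reads shared with other genes make them uncertain. The knockdown value of Ahcy was -3.60 (adjusted p = 0.0915) without knockdown replicate 3 and -1.39 in the 10 libraries without 3NC replicate 2 and knockdown replicate 1. The test among the 4 groups had an adjusted p of 0.224 by edgeR and passed without knockdown replicate 3 (0.0379). The epididymis list lay below the control in the same 2 comparisons as Ahcy, and its part was not tested.

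Neil3, a DNA glycosylase of base excision repair, and Mbd4, a reader with glycosylase activity, were the higher and the lower listed gene with the smallest p in 5NC against 3NC. Neil3 held 13.2, 16.0 and 14.2 CPM in 5NC and 7.74, 7.02 and 12.1 in 3NC (log2 fold change 0.69, SE 0.21, adjusted p = 0.294 by edgeR), with 8.47 to 10.2 in the knockdown group and 8.42 to 12 in the overexpression group. As for Dnmt3b, the 5NC libraries were the highest of all 12, which 2.84% of all tested genes showed for 5NC. Mbd4 held 13.0, 14.8 and 16.5 CPM in 5NC and 18.6, 17.2 and 20.2 in 3NC (-0.34, SE 0.13, adjusted p = 0.41), and 13.7, 15.5 and 15.1 in the knockdown group (-0.34, SE 0.13, adjusted p = 0.764). These values of Mbd4 share the 3NC libraries, and its counts were fractional in 5 of 12 libraries, which leaves them uncertain.

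**Figure D5:**
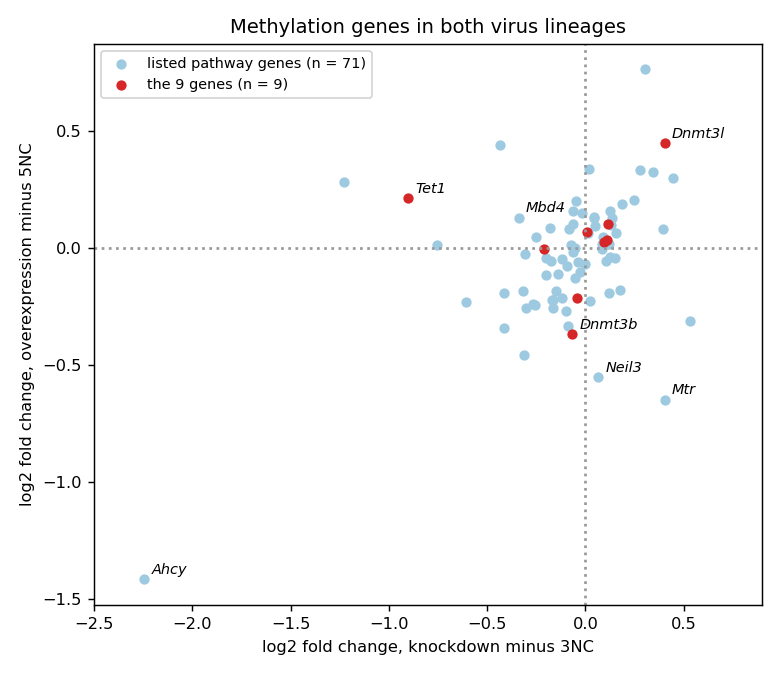
Log2 fold change of each of the 9 genes (red) and of the 71 tested listed genes (blue) in the knockdown against 3NC (horizontal axis) and in the overexpression against 5NC (vertical axis). Dnmt3l lies at 0.40 and 0.45, Mtr at 0.40 and -0.65 and Ahcy at -2.24 and -1.41, and only the overexpression value of Mtr passed the test.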

How the data were processed

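RNA from 12 F1 testes libraries was sequenced by the authors, after poly(A) enrichment per their methods (the labels say total RNA). Their aligner was SOAPaligner, with mouse genes as the reference, and the build in the labels is mm10. Estimated counts of each gene were deposited, with fractions in 12.0% of values and the sharing of reads not given in the sources used here, and FPKM computed by the authors. A further 18 columns, of samples of other groups, were left out. Gene IDs were matched to RefSeq for 20630 of 20788 genes.

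Estimated counts were rounded, and filterByExpr kept 16388 genes and removed 4400. All 12 libraries were fitted with a coefficient per group, TMM scaling and quasi-likelihood tests (edgeR 4.0.16, R 4.3.3), with a common biological coefficient of variation of 22.9% and 8 residual degrees of freedom. CPM are TMM-scaled. The method departs from that of the study (DEGseq), which has no term for the spread between libraries. Named pathway genes were those that passed in a comparison or, where none passed, the higher and the lower gene with the smallest p. Members, lists and rules were chosen with earlier results of these data known. No 2 libraries of a group agreed within sampling noise (chi-square per degree of freedom 3.44 to 39.1). The 22 alternatives were other scalings, no filter, a replicate block, only the groups compared, DESeq2 1.42.0, limma-trend (3.58.1) on log2 CPM and on log2(FPKM + 0.1 or 1), and left-out libraries. Scripts were tested on simulated data. Some genes that the lists or rules take in are not reported here.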

Additional observations from a re-analysis of the deposited data

Results flagged for a closer look

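Mtr, the methionine synthase, lay on opposite sides of the matched vector control in the lncRNA5251 groups. Every knockdown library was above every 3NC library and every overexpression library below every 5NC library. Over all genes this was seen for 4.95% in the knockdown, 10% in the overexpression and 0.226% in both. The controls lay apart as well, with 5NC above 3NC in every library, as for 6.8% of all genes. The log2 fold change of 5NC against 3NC was 0.37 (SE 0.12, adjusted p = 0.301 by edgeR). The knockdown libraries, at 43.1 to 54.0 CPM, overlapped those of 5NC, at 44.2 to 50.9 CPM. The difference of effects below uses both controls. The log2 fold change of the knockdown minus that of the overexpression was 1.05 (SE 0.16, 95% interval 0.69 to 1.41), with an unadjusted p of 4.3e-05 and an adjusted p of 0.0876 by edgeR's quasi-likelihood test over 16388 genes, which did not pass 0.05. Over 21 alternative settings the adjusted p ran from 1.4e-05 (DESeq2) to 0.3 (without 5NC replicate 3), and it passed in 2 of them, DESeq2 and without 3NC replicate 3 (0.0268).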

How the results depend on the processing

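None of the 9 genes passed under the 22 alternative settings of the 3 comparisons between groups, where the smallest adjusted p was 0.186 (Dnmt3b, the overexpression against 5NC, 10 libraries). None passed under the 21 settings of the difference of effects (smallest 0.692, Tet3 without 3NC replicate 2) or of the test among the 4 groups (smallest 0.171, Dnmt3b without scaling), which the fit with only the groups compared cannot give. Of 775 log2 fold changes of these genes under the alternatives, 59 had another sign, and the largest of these in the reported fit was 0.33 in size. Tet1 had no value on the FPKM scale, where it did not reach 0.5 in 3 libraries. Tet1 had the fewest reads, 10 to 39 per library, and the part of depth in its spread was not tested.

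Under the settings other than leaving out 1 library, the values that changed sign in the knockdown against 3NC were those of Dnmt3a, at -0.002 without scaling, -0.010 on log2(FPKM + 0.1), -0.007 on log2(FPKM + 1) and -0.025 in 10 libraries without 3NC replicate 2 and knockdown replicate 1. In the overexpression against 5NC they were Trim28 (-0.025 without scaling and -0.024 on both FPKM scales), Uhrf1 (-0.014 and -0.011), Tet1 (-0.029 on limma-trend log2 CPM) and Tet2 (0.000 without the filter and 0.021 with a replicate block). In 5NC against 3NC they were Tet2 (0.19), Tet3 (0.22) and Uhrf1 (-0.018) in the 10 libraries. The cause was not tested.

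Leaving out 1 library at a time gave these ranges for the values that changed sign. In the knockdown against 3NC they were -0.085 to 0.067 for Dnmt3a, -0.67 to 0.31 for Tet2 and -0.46 to 0.37 for Tet3. In the overexpression against 5NC they were -0.023 to 0.23 for Dnmt1, -0.72 to 0.59 for Tet1, -0.18 to 0.16 for Tet2, -0.056 to 0.11 for Trim28 and -0.012 to 0.10 for Uhrf1. In 5NC against 3NC they were -0.14 to 0.054 for Dnmt1, -0.17 to 0.084 for Dnmt3l, -0.38 to 0.080 for Tet1, -0.58 to 0.19 for Tet2, -0.40 to 0.22 for Tet3 and -0.034 to 0.13 for Uhrf1. For the knockdown minus the overexpression effect they were -0.11 to 0.14 for Dnmt1, -0.15 to 0.14 for Dnmt3l, -0.67 to 0.32 for Tet2, -0.24 to 0.58 for Tet3, -0.027 to 0.16 for Trim28 and -0.006 to 0.16 for Uhrf1.

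Over all genes, 0 passed in the knockdown against 3NC (924 unadjusted), and 16 in DESeq2 and 0 to 12 with 1 library left out (12 without 3NC replicate 3). In the overexpression against 5NC 51 passed, 107 with only the groups compared, 323 in DESeq2, 82 on log2(FPKM + 0.1), 159 in the 10 libraries and 9 to 87 with 1 left out (9 without 5NC replicate 2 or 3, 87 without 3NC replicate 3). In 5NC against 3NC 21 passed, 33 without scaling, 7 with only the groups compared, 163 in DESeq2, 45 in the 10 libraries and 3 to 35 with 1 left out (5NC replicate 3 and 3NC replicate 2). For the difference of effects 4 passed, 41 in DESeq2 and 2 to 10 with 1 left out (5NC replicate 2 and 3NC replicate 3), and for any difference among groups 39 passed, 64 without scaling, 568 in DESeq2, 67 in the 10 libraries and 6 to 81 with 1 left out (5NC replicate 3 and 3NC replicate 3). Without scaling 38 were higher and 29 lower in the overexpression, where the reported fit had 34 and 17, and 13 higher and 20 lower in 5NC, where it had 5 and 16. On log2(FPKM + 0.1) and log2(FPKM + 1) the split in the overexpression was 40 and 42, and 26 and 29. The deviations of same-numbered libraries correlated at -0.64 to 0.39 and those of unlike-numbered ones at -0.58 to 0.77. With 3 libraries per group these values cannot settle whether replicate numbers pair the samples. In the fit with the replicate block 0, 21, 5, 2 and 7 genes passed in these 5 comparisons in turn.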
